A study of Homo sapiens with 6 samples.

Results

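The 44 genes described here are the collagen genes, from COL1A1 to COL28A1. They were found by symbol among the 41497 entries with a gene name (42095 entries in all), and only the entry on a primary chromosome was used. Collagens are the main structural proteins of the extracellular matrix. Each molecule is a triple helix of 3 α chains, either copies of a single chain or a fixed mixture of chains from different genes, so that the relative supply of partner chains matters as well as the total. Fibrillar collagens form the banded fibres of interstitial scar, whereas type IV collagen forms the sheet that underlies every epithelium, including the tubular basement membrane. The remaining classes bind to fibrils, form beaded microfilaments or hexagonal nets, or span the plasma membrane. TGF-β1 is the classic inducer of collagen deposition in the fibrotic kidney.

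The libraries came from HK-2 cells (WT genotype), which are proximal tubular epithelial cells of a human kidney kept as an immortalised line. RNA-seq compared 3 control libraries without the cytokine with 3 libraries from cells given TGF-β1, all at 24 h. Both groups came from cells kept in DMEM-F12 with fetal bovine serum. The study's methods describe the exposure to TGF-β as serum-free, and the serum status of the controls in that period is not given in the sources used here. All 6 libraries are of this single line, and nothing states that the replicates were separate cultures, so the p-values measure the spread between these samples, which may be technical.

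Libraries held 21.9 to 26.9 megacounts (M). Genes known to respond to the cytokine separated the groups. TGFBI rose from a mean of 1705 to 8601 CPM (counts per 1 M counts, scaled by the TMM method), and SMAD7, SKIL and LTBP2 rose by 1.64, 1.08 and 2.12 on the log2 scale. For the labelled cell type, PAX8 (251 CPM in control and 151 CPM after TGF-β1) and the keratins were well expressed, and GGT1, a brush border enzyme, was at 75.6 and 50.5 CPM. Among the other brush border markers, LRP2 had no read in any library and ANPEP had 3 reads in each group. For fibroblasts, which make much of the collagen of a scarred kidney, the summed level of 4 markers was 58.8 to 68.4 CPM in control and 56.6 to 57.7 CPM after TGF-β1. Most of that was LUM (61.7 and 51.0 CPM). PDGFRA had 2 reads in the control group and 4 after TGF-β1, DCN had 9 and 12, and PDGFRB rose from 0.551 to 5.79 CPM. Their part in the collagen values was not tested. On the second principal component of all genes, TGF-β1 replicate 1 lay at 26.9, away from the other TGF-β1 libraries at -13.2 and -15.1. In these bulk libraries, fewer cells that express a gene and less RNA per cell cannot be told apart.

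Collagen transcripts were found in every class, but unevenly. Each library held a read of 34 to 37 of the 44 genes and at least 10 reads of 22 or 23. After the filter on low counts, 25 collagen genes were compared by the edgeR quasi-likelihood test. A gene was called at an adjusted p under 0.05, with adjustment over all 14860 genes tested. Of the 25, 14 were called higher after TGF-β1 and 7 lower, and 4 were not called. Over all genes tested, 44.3% were called, 22.2% higher and 22.1% lower. At least 2-fold, 9 collagen genes rose and 6 fell, 15 in all, where the shares over all genes were 3.68%, 5.38% and 9.06%. The groups did not overlap for 23 of the 25, against 55.6% of all genes. For 15 of them every TGF-β1 library was above every control library (27.9% of all genes), and for 8 below (27.7%). The median log2 fold change of the 25 was 0.37 and that of all genes tested was 0.01.

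Counts of this kind depend on which genes could pass the filter. Among the 18 collagen genes that reached it in both groups, 11 rose, 4 fell and 3 were not called. The shares given above cover all genes tested. A share over all genes that reached the filter in both groups was not computed. COL3A1, COL6A3 and COL20A1 reached it in the TGF-β1 libraries only, and COL10A1, COL11A1, COL17A1 and COL28A1 in the control libraries only. Members of these last groups were tested because they were high in 1 condition, so the side on which they were high was set by the filter. All of them except COL10A1 are among the genes counted above as changed at least 2-fold and as not overlapping. Those counts and the median thus rest in part on the filter, and they were not computed without these genes.

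**Figure D1:**
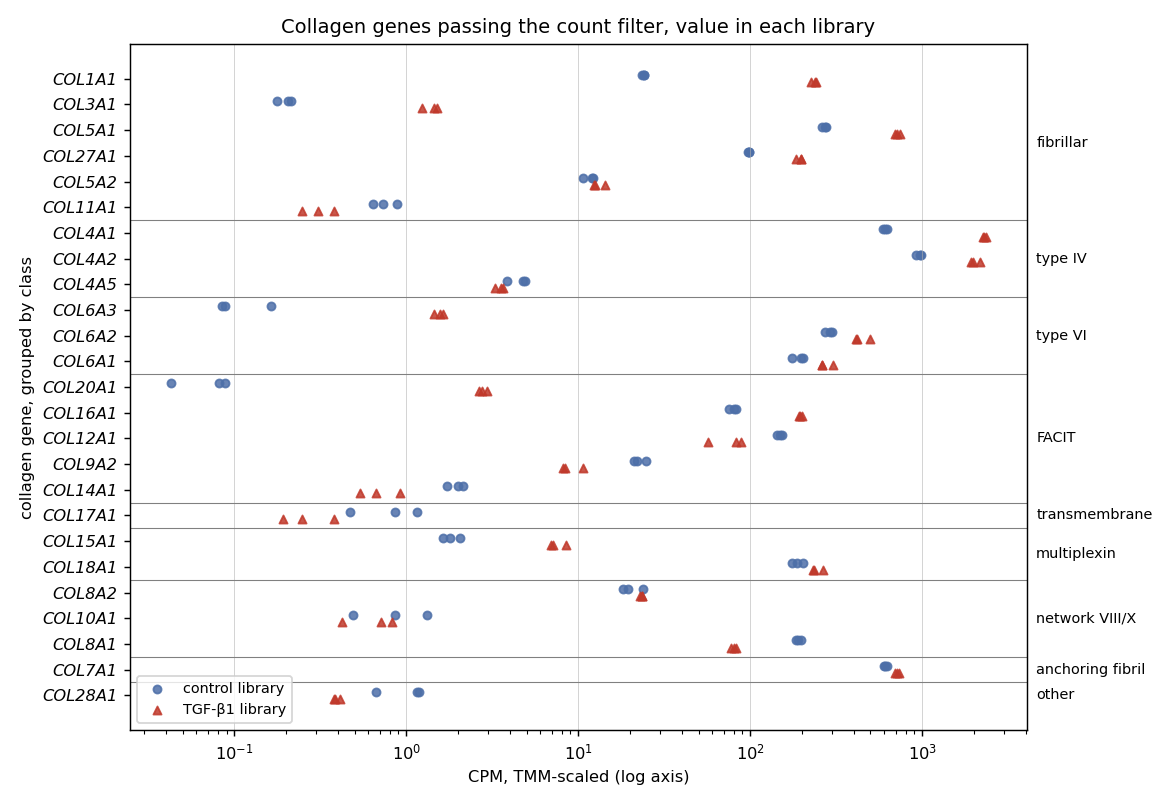
TMM-scaled CPM (log axis) of the 25 collagen genes that passed the count filter, grouped by class, with 1 point for each of the 3 control libraries (circles) and the 3 TGF-β1 libraries (triangles). COL1A1 lies at 23.6 to 24.2 CPM in control and 226 to 242 CPM after TGF-β1, COL8A1 lies lower after TGF-β1, and the points of COL8A2 and COL10A1 overlap.

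To compare levels between genes, TPM values (transcript abundances that take gene length into account and have the same sum in every library) were used. The collagen genes together had 1640, 1688 and 1614 TPM in control and 2824, 2848 and 2760 TPM after TGF-β1. All 3 TGF-β1 libraries were above all control libraries, at a ratio of means of 1.71. The exact permutation test gave the smallest p it can with 3 libraries against 3, which is 0.1. As a share of all counts, collagen made up 0.385% ± 0.0100 in control and 0.724% ± 0.0181 after TGF-β1 (SD, n = 3).

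The most abundant collagen transcripts of these cells were those of basement membrane, microfilament and anchoring fibril chains. In control, COL4A2 was first at 495 TPM, followed by COL7A1 (211 TPM), COL6A2 (202 TPM), COL6A1 (151 TPM) and COL4A1 (130 TPM). After TGF-β1, COL4A2 remained first at 957 TPM, COL4A1 was second at 453 TPM, and COL7A1 was at place 4 (227 TPM). COL1A1, the main chain of interstitial scar, went from place 13 (13.5 TPM) to place 7 (122 TPM). Another fibrillar chain, COL5A1, lay above it in both groups, at place 8 (83.0 TPM) in control and place 5 (203 TPM) after TGF-β1. These places rest on the gene lengths of the deposited tables. The table gives COL4A1 a length of 15595 bases, whereas its longest principal GENCODE transcript has 6616, and with such lengths for all chains COL4A1 was second in control and first after TGF-β1.

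The fibrillar class has 11 genes, of which 6 were tested. In all, 4 chains rose, 1 fell and 1 was not called, and the median log2 fold change of the tested chains was 1.19. COL3A1, which rose, and COL11A1, which fell, each passed the filter through 1 group only. COL1A1 (gene-COL1A1, chr17:50184096-50201649, GRCh38, minus strand) encodes the α1 chain of type I collagen. It had 23.6, 24.2 and 24.2 CPM in control and 242, 239 and 226 CPM after TGF-β1, with the lowest treated library far above the highest control library. Its log2 fold change was 3.30 ± 0.06 (SE, edgeR adjusted p 7.24e-11). COL1A2 encodes the α2 chain that joins 2 α1 chains in ordinary type I collagen. It had no read in the 3 control libraries and 1 read in the 3 TGF-β1 libraries, against 1692 and 16811 reads of COL1A1. The reads of type I collagen were thus those of COL1A1, at a depth where 0 reads allows up to 3 reads of COL1A2 over a group.

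COL5A1 (gene-COL5A1, chr9:134641789-134844843, plus strand) encodes the α1 chain of type V collagen, which nucleates type I fibrils. In control its level was 270.4, 276 and 262 CPM. With TGF-β1 it was 695, 741 and 711 CPM, far above control. The log2 fold change was 1.41 ± 0.05 (SE, edgeR adjusted p 7.90e-09). Its partner COL5A2 had 10.6, 12.1 and 12.1 CPM in control and 12.4, 14.2 and 12.5 CPM after TGF-β1. The treated values were all above the control values, but only narrowly, and COL5A2 was not called (0.17 ± 0.09, edgeR adjusted p 0.165). COL5A3, another type V chain, had 1 read in all. COL27A1 (gene-COL27A1, chr9:114154271-114312511, plus strand), a short fibrillar collagen known from cartilage, went from 98.5, 98.4 and 96.5 CPM to 183, 197 and 196 CPM. It rose by 0.98 ± 0.05 (SE, edgeR adjusted p 9.83e-08), with no overlap.

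The remaining fibrillar genes were rare. COL3A1 (chr2:188974373-189012746, plus strand), which encodes the single chain of type III collagen and is a usual marker of fibrosis, had 4, 5 and 5 reads in the control group and 39, 35 and 26 after TGF-β1. It was called higher, by 2.78 ± 0.28 (SE, edgeR adjusted p 1.40e-05), yet reached a mean of only 1.40 CPM against 236 CPM for COL1A1. Only the TGF-β1 libraries reached the filter for COL3A1, which set the direction of this call. COL11A1 (chr1:102876473-103108580, minus strand), a cartilage fibril chain, had 20, 18 and 15 reads in the control group and 8, 6 and 8 after TGF-β1. The groups did not overlap and it was called lower (-1.27 ± 0.32, edgeR adjusted p 0.00790), but the call was lost with DESeq2 (-1.28, adjusted p 0.0713). For COL11A1 only the control libraries reached the filter, which set the direction of the call. COL2A1, the cartilage type II chain, had 3 reads in the control group and 5 after TGF-β1. COL24A1, another minor fibrillar collagen, had 18 reads in the control group and 3 after TGF-β1, below the filter.

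**Figure D2:**
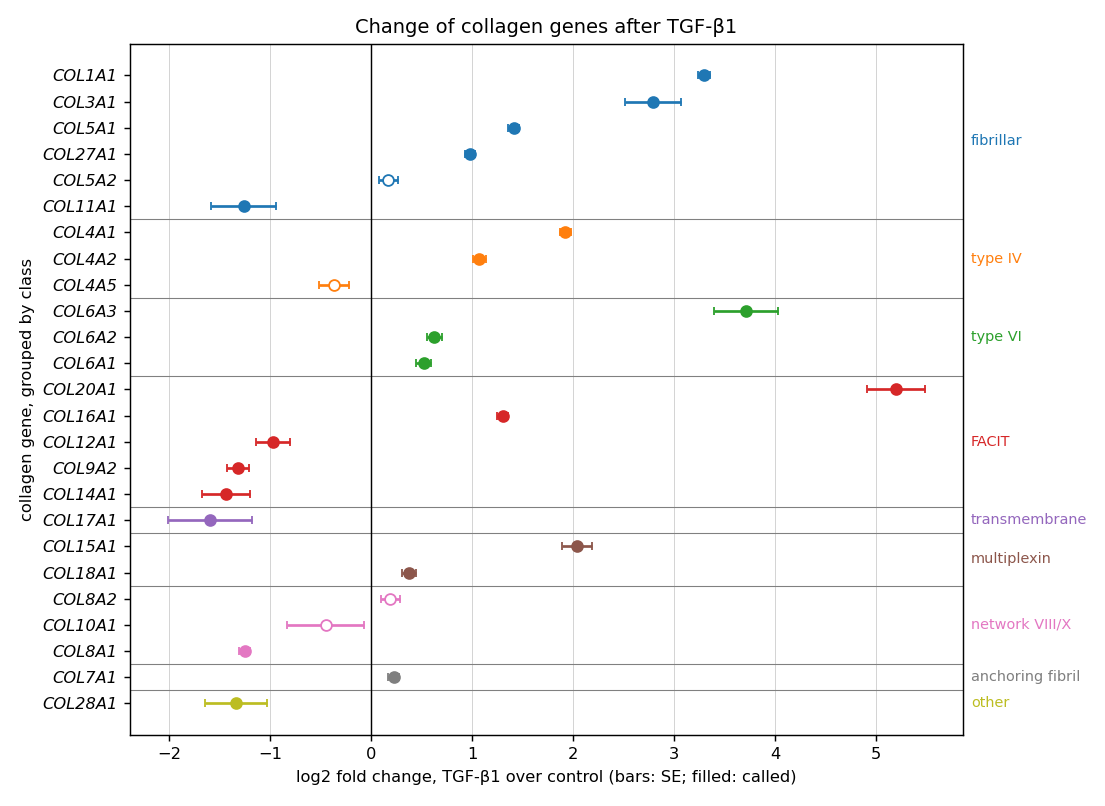
log2 fold change of TGF-β1 over control for the 25 tested collagen genes, grouped by class, with bars of 1 SE; filled points were called by edgeR at an adjusted p under 0.05. Fold changes within the fibrillar class run from -1.27 (COL11A1) to 3.30 (COL1A1), and those of the fibril-associated (FACIT) class from -1.44 (COL14A1) to 5.19 (COL20A1). COL3A1, COL6A3 and COL20A1 reached the count filter in TGF-β1 libraries only, and COL10A1, COL11A1, COL17A1 and COL28A1 in control libraries only.

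Type IV collagen is encoded by 6 genes arranged as head-to-head pairs, in which neighbouring genes are read outward from a shared stretch of DNA. COL4A1 and COL4A2 are paired on chromosome 13, COL4A4 and COL4A3 on chromosome 2, and COL4A6 and COL4A5 on chromosome X. Their starts lie 126, 106 and 344 bases apart in the deposited tables. The promoter windows of these genes are shown because members of a pair share sequence, and because the transcripts of COL4A1 and COL4A2 rose to different degrees. Each window runs 5′ to 3′ on the strand of its gene, from 250 bases before the start to 50 bases after it, and comes from RefSeq on GRCh38.p14. For COL4A4, COL4A3 and COL4A6 the starts used for the windows differ from those of the deposited tables. The distances above thus hold for the windows of the chromosome 13 pair only. Capitals mark GGGCGG, the core of the GC box, and CCAAT, each on either strand (CCGCCC and ATTGG on the other).
COL4A1: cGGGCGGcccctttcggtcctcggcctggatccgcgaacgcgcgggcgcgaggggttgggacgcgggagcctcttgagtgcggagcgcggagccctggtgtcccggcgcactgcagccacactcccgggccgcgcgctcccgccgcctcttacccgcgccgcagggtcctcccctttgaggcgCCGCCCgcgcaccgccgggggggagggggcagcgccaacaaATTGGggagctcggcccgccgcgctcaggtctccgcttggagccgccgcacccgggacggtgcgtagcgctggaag
COL4A2: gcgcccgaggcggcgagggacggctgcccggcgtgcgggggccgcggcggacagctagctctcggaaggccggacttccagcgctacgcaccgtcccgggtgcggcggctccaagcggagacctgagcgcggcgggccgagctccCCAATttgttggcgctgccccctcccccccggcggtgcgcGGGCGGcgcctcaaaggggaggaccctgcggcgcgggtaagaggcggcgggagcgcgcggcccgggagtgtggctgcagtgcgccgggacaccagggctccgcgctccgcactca
COL4A4: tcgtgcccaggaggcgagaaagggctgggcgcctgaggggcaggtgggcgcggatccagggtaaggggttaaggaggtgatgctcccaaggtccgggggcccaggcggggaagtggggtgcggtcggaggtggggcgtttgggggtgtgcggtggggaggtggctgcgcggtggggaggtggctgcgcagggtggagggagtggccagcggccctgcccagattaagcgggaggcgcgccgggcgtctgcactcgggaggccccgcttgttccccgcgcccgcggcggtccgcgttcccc
COL4A3: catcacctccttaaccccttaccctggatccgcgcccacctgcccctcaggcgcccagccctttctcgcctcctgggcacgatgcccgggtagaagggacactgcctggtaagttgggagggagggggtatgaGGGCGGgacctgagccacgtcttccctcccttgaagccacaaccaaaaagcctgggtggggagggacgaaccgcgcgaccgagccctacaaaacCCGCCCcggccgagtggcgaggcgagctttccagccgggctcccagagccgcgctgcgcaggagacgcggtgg
COL4A6: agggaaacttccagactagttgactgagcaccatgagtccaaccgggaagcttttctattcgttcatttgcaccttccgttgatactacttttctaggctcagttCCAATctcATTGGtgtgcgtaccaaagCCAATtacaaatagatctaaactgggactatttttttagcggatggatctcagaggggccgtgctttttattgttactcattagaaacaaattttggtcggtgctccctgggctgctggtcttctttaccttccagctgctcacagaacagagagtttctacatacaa
COL4A5: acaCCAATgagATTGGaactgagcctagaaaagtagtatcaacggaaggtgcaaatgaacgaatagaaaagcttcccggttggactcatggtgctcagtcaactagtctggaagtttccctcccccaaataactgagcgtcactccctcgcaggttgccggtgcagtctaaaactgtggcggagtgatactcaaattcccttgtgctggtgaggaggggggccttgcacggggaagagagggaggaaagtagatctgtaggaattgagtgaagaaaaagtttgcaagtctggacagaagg

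These windows lie at chr13:110307108-110307407 (COL4A1, minus strand), chr13:110307034-110307333 (COL4A2, plus strand), chr2:227164156-227164455 (COL4A4, minus strand), chr2:227164374-227164673 (COL4A3, plus strand), chrX:108439409-108439708 (COL4A6, minus strand) and chrX:108439588-108439887 (COL4A5, plus strand). The windows of COL4A1 and COL4A2 share 226 bases, those of COL4A4 and COL4A3 share 82, and those of COL4A6 and COL4A5 share 121. The chromosome 13 pair was rich in G and C (76.7% and 77.7%), as were COL4A4 (74.0%) and COL4A3 (67.7%), whereas COL4A6 and COL4A5 had 43.7% and 49.3%. Among the printed windows, GGGCGG was found in those of COL4A1, COL4A2 and COL4A3, and CCAAT in those of COL4A1, COL4A2, COL4A6 and COL4A5. A second RefSeq window of COL4A6, not printed here (chrX:108438373-108438672), held GGGCGG at 1 place and no CCAAT. The 5 letters CAGAC, an extended SMAD binding element, were found once each in COL4A4 and both windows of COL4A6 and at 2 places in COL4A5. On either strand, GGGCGG occurred in 45.0% of 35116 RefSeq promoter windows of this length, CCAAT in 34.6% and CAGAC in 45.3%. Over the 44 windows of the 32 collagen genes that had any, the shares were 54.5%, 31.8% and 40.9%. A match is a run of letters and was not measured as a binding site.

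Both genes of the chromosome 13 pair rose, and to different degrees. COL4A1 (gene-COL4A1, chr13:110148963-110307157, minus strand) had 611, 622 and 593 CPM in control and 2254, 2361 and 2293 CPM after TGF-β1. The groups lay far apart, and the log2 fold change was 1.92 ± 0.05 (SE, edgeR adjusted p 1.08e-09). COL4A2 (gene-COL4A2, chr13:110307284-110513209, plus strand) had 979.7, 975 and 922 CPM in control and 2153, 1978 and 1910.1 CPM after TGF-β1. It rose by 1.07 ± 0.06 (SE, edgeR adjusted p 1.95e-07), again with no overlap. The products of this pair form the ordinary network of basement membranes with 2 COL4A1 chains for each COL4A2 chain.

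The pairs that make the specialised networks of the glomerulus and distal tubule were low. COL4A3 had 14 reads in the control group and 12 after TGF-β1, COL4A4 had 15 and 9, and COL4A6 had 3 and 3, all under the filter. COL4A5 (chrX:108439838-108697545, plus strand), the X-linked chain that is mutated in most families with Alport syndrome, was at 4.87, 3.84 and 4.77 CPM in control and 3.26, 3.64 and 3.53 CPM after TGF-β1. All treated values were below all control values, by little. COL4A5 was not called (-0.37 ± 0.14, edgeR adjusted p 0.0598). It was called lower without control replicate 2 (-0.47, edgeR adjusted p 0.0382), with scaling by total counts only (-0.48, edgeR adjusted p 0.0201) and among genes that averaged 50 counts or more (-0.39, edgeR adjusted p 0.0408).

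Type VI collagen forms beaded microfilaments next to basement membranes from an α1, an α2 and an α3 chain. All 3 tested chains were called higher, of which COL6A1 and COL6A2 reached the filter in both groups. COL6A1 (chr21:45981770-46005048, plus strand) had 201, 198 and 174 CPM in control and 301, 261 and 261 CPM after TGF-β1, and rose by 0.52 ± 0.07 (SE, edgeR adjusted p 0.000233). COL6A2 (chr21:46098071-46132849, plus strand), its tandem neighbour, had 297, 291 and 274 CPM in control and 495, 417 and 415 CPM after TGF-β1, and rose by 0.62 ± 0.07 (SE, edgeR adjusted p 5.54e-05). In both genes TGF-β1 replicate 1 was the highest library, and the groups did not overlap. COL6A3 (chr2:237324018-237434822, minus strand) had only 2, 4 and 2 reads in the control group and 41, 35 and 34 after TGF-β1. It was called higher, by 3.71 ± 0.32 (SE, edgeR adjusted p 4.31e-06), and stayed far below its partners at a mean of 1.55 CPM. COL6A3 passed the filter through the TGF-β1 libraries only, so its direction was set by the filter. COL6A5 and COL6A6, which can take the place of the α3 chain, had 3 and 24 reads in the control group and 0 and 14 after TGF-β1.

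The FACIT collagens, which attach to the surface of fibrils without forming them, moved in both directions. Of 10 genes 5 were tested, 2 were called higher and 3 lower, and the median log2 fold change of the 5 was -0.97. Of the 2 higher, COL20A1 passed the filter through the TGF-β1 libraries only. COL16A1 (gene-COL16A1, chr1:31652263-31704162, minus strand), which links fibrils and microfibrils to cells, had 74.9, 82.2 and 80.4 CPM in control and 199.7, 191 and 194 CPM after TGF-β1. All treated values were far above the control values, and the log2 fold change was 1.30 ± 0.06 (SE, edgeR adjusted p 1.67e-08). COL12A1 (gene-COL12A1, chr6:75084326-75206262, minus strand), a large bridging collagen of dense connective tissue, had 154, 149 and 144 CPM in control. After TGF-β1 it had 56.8, 82.8 and 88.0 CPM, so that every treated library was lower and replicate 1 the lowest. It fell by 0.97 ± 0.17 on the log2 scale (SE, edgeR adjusted p 0.00490), and by 0.81 without TGF-β1 replicate 1.

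COL9A2 (chr1:40300487-40317653, minus strand), a type IX chain of cartilage, had 21.2, 24.9 and 21.8 CPM in control and 10.6, 8.35 and 8.12 CPM after TGF-β1. The groups were well apart, and it fell by 1.32 ± 0.11 on the log2 scale (SE, edgeR adjusted p 4.17e-06). Its partners were close to absent, with 3 reads of COL9A1 in control and 0 after TGF-β1, and 6 and 14 reads of COL9A3. COL9A3 shares 155 exon bases with TCFL5 on the opposite strand, which had a mean of 1114 and 1201 counts, and the strand setting of the counting is not given in the sources used here. COL14A1 (chr8:120124467-120373573, plus strand), which binds decorin on fibrils, had 45, 42 and 50 reads in the control group and 24, 13 and 14 after TGF-β1. No libraries overlapped, and COL14A1 fell by 1.44 ± 0.24 (SE, edgeR adjusted p 0.000603).

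COL20A1 (gene-COL20A1, chr20:63293169-63334847, plus strand) had the highest fold change of the 25 genes. It had 2, 2 and 1 reads in the control group and 69, 71 and 58 after TGF-β1, and was called higher at 5.19 ± 0.29 (SE, edgeR adjusted p 1.27e-07). COL20A1 reached the filter in the TGF-β1 libraries only, so its direction was set by the filter and the value is a description. Its level after TGF-β1 was still only 2.79 CPM. Within 100 kb of COL20A1 on chromosome 20, the other genes that passed the filter were YTHDF1, BIRC7, NKAIN4 and ARFGAP1. They were also called higher, by 0.83, 1.22, 1.504 and 1.25 on the log2 scale. Over all genes tested, 22.2% were called higher, and whether the region changed as a whole was not tested. ARFGAP1 ends upstream of COL20A1 on the same strand (at position 63289790) and went from 14067 to 33771 reads, and its part in the reads of COL20A1 was not tested. CHRNA4, also within 100 kb, had no read. The other FACIT genes were under the filter. COL22A1, a collagen of tissue junctions, had no read in control and 9 after TGF-β1. Taking these 9 reads as exact, that is 2.76-fold higher than 3 reads over the control group. COL21A1 had 10 reads in the control group and 2 after TGF-β1, and COL19A1 had none.

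The network-forming collagens VIII and X have 3 genes, of which 1 fell and 2 were not called. COL8A1 (gene-COL8A1, chr3:99638594-99799217, plus strand), a short-chain collagen that forms hexagonal nets in vessels and in Descemet's membrane, had 190.2, 196 and 185 CPM in control and 76.8, 82.8 and 80.2 CPM after TGF-β1. The groups were far apart, and COL8A1 fell by 1.25 ± 0.05 on the log2 scale (SE, edgeR adjusted p 1.84e-08). Its partner COL8A2 had 19.5, 23.7 and 18.1 CPM in control and 23.5, 22.9 and 23.4 CPM after TGF-β1, which overlapped. COL8A2 was not called (0.19 ± 0.09, edgeR adjusted p 0.132), though it was called higher without control replicate 2 (0.31, edgeR adjusted p 0.0138). COL10A1, the network collagen of hypertrophic cartilage, had 63 reads in the control group and 46 after TGF-β1 with overlapping libraries (-0.45 ± 0.38, edgeR adjusted p 0.369).

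COL7A1 (gene-COL7A1, chr3:48564073-48595329, minus strand) is the single chain of the anchoring fibrils that tie basement membranes to the stroma. It had 605, 627 and 599.6 CPM in control and 692, 714 and 730.4 CPM after TGF-β1. The groups did not overlap, but the difference was small (0.22 ± 0.05, edgeR adjusted p 0.00531), and it was not called with scaling by total counts only (0.11, edgeR adjusted p 0.0942). The multiplexins COL15A1 and COL18A1 carry heparan or chondroitin sulphate in basement membranes, and COL18A1 is the source of endostatin. COL15A1 (chr9:98943392-99070787, plus strand) had 1.64, 2.04 and 1.79 CPM in control and 8.45, 6.95 and 7.16 CPM after TGF-β1, a rise of 2.04 ± 0.15 on the log2 scale (SE, edgeR adjusted p 1.16e-06). COL18A1 (chr21:45405165-45513720, plus strand) had 187, 202 and 175 CPM in control and 263, 232 and 235 CPM after TGF-β1, and rose by 0.37 ± 0.07 (SE, edgeR adjusted p 0.00127). No library of COL15A1 or COL18A1 overlapped between groups. COL18A1 is uncertain, since 1174 of its exon bases, or 17.4% of its length, overlap SLC19A1 on the opposite strand, which had a mean of 925 counts in control and 871 after TGF-β1.

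The transmembrane collagens were nearly silent. Of 4 genes only COL17A1 (chr10:104031286-104085880, minus strand), the hemidesmosomal collagen that fixes basal epithelial cells to their basement membrane, was tested. It had 26, 21 and 11 reads in the control group and 5, 6 and 8 after TGF-β1. Treated libraries were lower throughout, and COL17A1 was called lower (-1.60 ± 0.42, edgeR adjusted p 0.00961). Without control replicate 1, the library with most reads, the call was lost (-1.29, edgeR adjusted p 0.0512). COL13A1, found at cell adhesions, had 25 reads in the control group and 11 after TGF-β1, while COL23A1 and COL25A1 had 2 reads each in all. COL28A1 (chr7:7338542-7542094, minus strand), a collagen with von Willebrand factor A domains, had 15, 29 and 27 reads in the control group and 10, 10 and 8 after TGF-β1, and was called lower (-1.34 ± 0.31, edgeR adjusted p 0.00488). COL17A1 and COL28A1 reached the filter in the control libraries only, which set the direction of both calls. COL26A1 had 1 read.

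In all, 19 collagen genes were under the filter, with at most 25 reads in a group. COL11A2 and COL19A1 had no read in any library. When every gene with a count was fitted, 42 collagen genes were tested, and 15 were called higher and 8 lower. Over all 25944 genes of that fit, 3520 were called higher and 3438 lower. Adjusted p-values differed between this fit and the main one, for COL1A1 an edgeR adjusted p of 4.10e-71 against 7.24e-11. The added collagen calls were COL22A1 (edgeR adjusted p 0.0152) and COL24A1 (-2.45 ± 0.81, edgeR adjusted p 0.0143). For the others no difference was detectable at this depth.

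To see how the make-up of the collagen transcripts shifted, the TPM values of each class were taken as a share of all collagen TPM. Type IV chains made up 38.3%, 37.7% and 38.2% in the control libraries, against 50.4%, 50.5% and 49.8% after TGF-β1. Fibrillar chains went from 8.29%, 8.34% and 8.59% to 13.4%, 14.6% and 14.3%. These were the classes with a larger share after TGF-β1, with no overlap between groups. The share of type VI chains was 21.5% ± 0.594 in control and 17.3% ± 1.08 after TGF-β1 (SD, n = 3), that of COL7A1 12.8% ± 0.277 and 8.06% ± 0.484, and that of the network collagens VIII and X 7.68% ± 0.137 and 2.04% ± 0.114. FACIT chains had 5.86% ± 0.173 and 4.18% ± 0.194, and multiplexins 5.68% ± 0.239 and 4.07% ± 0.172. Transmembrane collagens were at 0.0508% and 0.0105%, and the other genes (COL26A1 and COL28A1) at 0.0138% and 0.00336%.

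A smaller share was not always a lower level. The summed TPM of fibrillar chains was 2.87 times that of control (138 and 397 TPM), and of type IV chains 2.25 times (627 and 1411 TPM). Type VI, FACIT, multiplexin and COL7A1 transcripts lost share while their summed TPM was 1.38, 1.22, 1.22 and 1.07 times the control value. Only the network, transmembrane and other classes had a lower sum, at 0.454, 0.353 and 0.414 times control. Each of the 9 differences in share gave p = 0.1 by the exact permutation test, also after adjustment over the classes, and 0.1 is the smallest p of this design. With principal transcript lengths the type IV share was 40.8% in control and 55.8% after TGF-β1, and the fibrillar share 8.44% and 12.4%. As shares of raw counts, FACIT chains had 6.79% and 3.76%, a larger difference than by TPM.

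**Figure D3:**
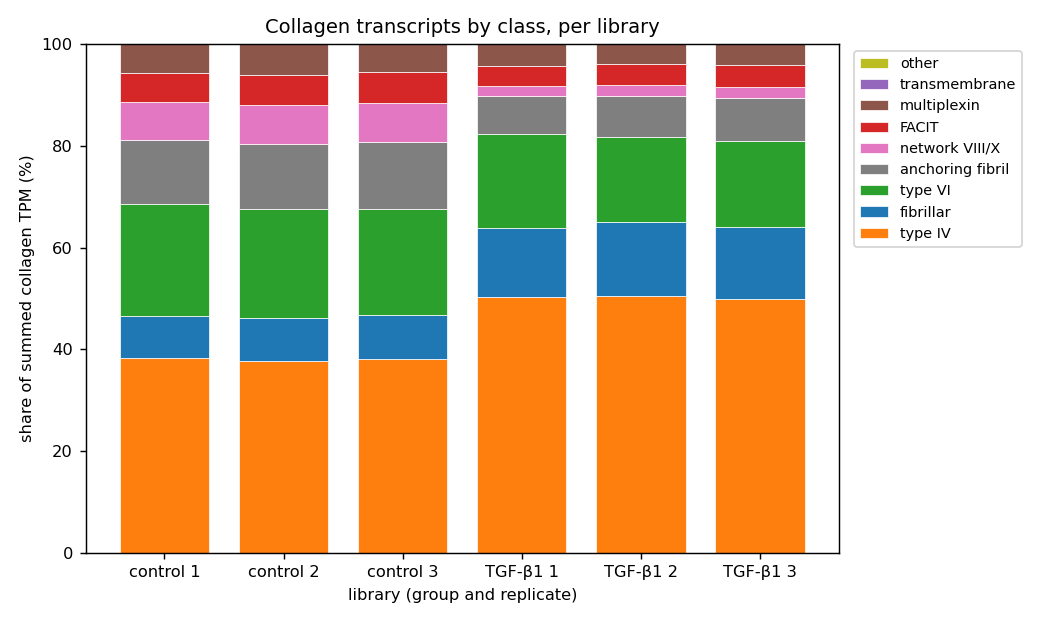
Share of summed collagen TPM (%) held by each of 9 collagen classes in each library, stacked from 0 to 100. Type IV (lowest band) widens from 37.7-38.3% in the 3 control libraries to 49.8-50.5% in the 3 TGF-β1 libraries, and the network VIII/X band narrows from 7.68% to 2.04% on average.

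Since many collagens are heterotrimers, the ratio of partner chains was compared in each library as log2 of reads per base of gene length, after adding 0.5 to each count. Of 11 pairs, 5 had both chains above the filter. The ratio of COL4A1 to COL4A2 was -1.96, -1.92 and -1.91 in the control libraries, against -1.21, -1.02 and -1.01 after TGF-β1, a difference of 0.85. COL4A1 was thus 0.263 times COL4A2 in control and 0.473 times after TGF-β1. With principal transcript lengths these ratios were 0.623 and 1.12, so the change held with either length but the order of the chains after TGF-β1 did not.

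The ratio of COL5A1 to COL5A2 was 4.04, 3.87 and 3.81 in the control libraries, against 5.18, 5.07 and 5.20 after TGF-β1, a difference of 1.24. COL5A1 was therefore 15.01 times COL5A2 in control and 35.5 times after TGF-β1. COL8A1 over COL8A2 went the other way, from 3.24, 2.998 and 3.30 to 1.66, 1.80 and 1.73, a difference of -1.45. COL6A1 and COL6A2 kept close together, with a mean ratio of -0.42 ± 0.05 in control and -0.52 ± 0.03 after TGF-β1 (SD, n = 3). The ratio of COL6A1 to COL6A3 was 11.96 ± 0.40 in control and 8.88 ± 0.13 after TGF-β1 (SD, n = 3), and the control value rests on 2 to 4 reads of COL6A3 in a library. Since COL6A3 passed the filter through the TGF-β1 libraries only, the direction of this ratio was set by the filter and it is given as a description. In the other 4 pairs the groups did not overlap, and the exact permutation test gave p = 0.1, also after adjustment over the 5 pairs. The pairs not compared were COL1A1 with COL1A2, COL4A3 with COL4A4, COL4A5 with COL4A6, COL5A1 with COL5A3, COL9A2 with COL9A3, and COL11A1 with COL11A2.

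**Figure D4:**
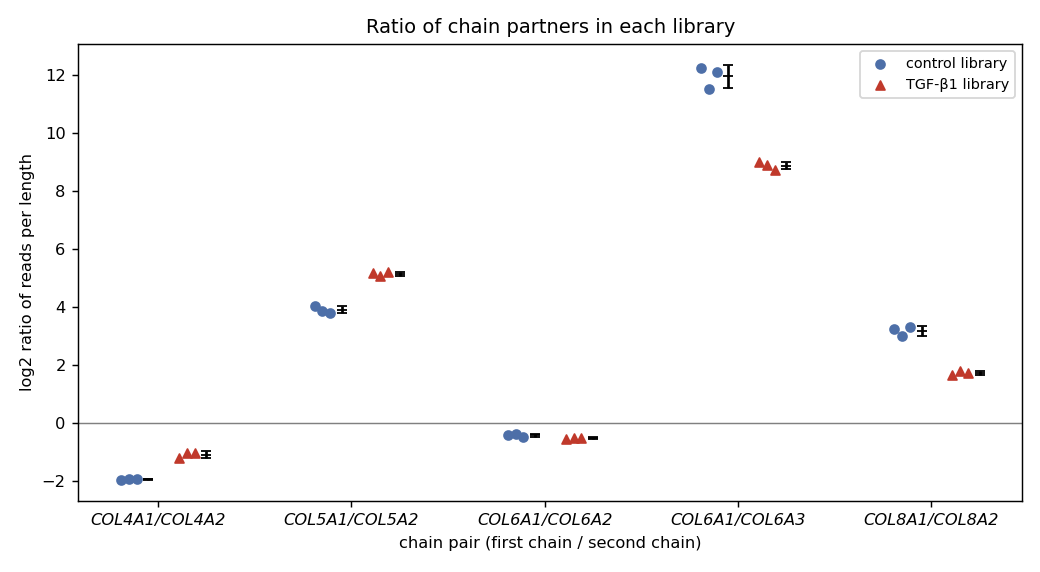
log2 ratio of reads per length of partner chains in each library, with the 3 control libraries as circles, the 3 TGF-β1 libraries as triangles and bars for the mean and SD. COL4A1/COL4A2 and COL5A1/COL5A2 lie higher after TGF-β1, by 0.85 and 1.24, COL8A1/COL8A2 lies lower by 1.45, and COL6A1/COL6A2 differs by 0.10.

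Collagen chains are hydroxylated, glycosylated, folded, exported, trimmed and crosslinked before they form a matrix. A list of 44 genes for these steps and for collagen receptors was examined beside the chains. Of these, 37 were tested, 17 were called higher and 7 lower, or 64.9%, where the background was 44.3%. The median log2 fold change was 0.19. Over all genes tested, 22.2% were called higher and 22.1% lower. Among 10 genes of prolyl hydroxylation 5 were higher and 2 lower, among 5 of lysyl hydroxylation and glycosylation 2 and 1, and among 6 chaperones and export factors 4 and 1. Of propeptide cleavage, 2 of 6 tested genes were higher and 1 lower, and of crosslinking 1 of 6 was higher and 2 lower, so that 50% were called in each, close to the background. Of 9 collagen receptors 4 were tested, and 3 were higher. The untested DDR1, GP6 and LAIR1 have 7, 10 and 5 entries, of which only the 1 on a primary chromosome was used. Reads on their other entries were left out, so their levels are uncertain. LOX, the copper enzyme that starts the crosslinks of fibrillar collagen, rose by 1.97 on the log2 scale (edgeR adjusted p 7.65e-10). The other genes of this list called with at least a 2-fold change were TLL1, P4HA3, ITGA2 and ADAMTS3. TLL1, a procollagen C-proteinase (1.65), P4HA3, a prolyl hydroxylase subunit (1.62), and ITGA2, a collagen-binding integrin chain (1.12), rose. ADAMTS3, a procollagen N-proteinase (-1.25), fell. P4HA3 was low, at 0.616 CPM in control and 1.89 CPM after TGF-β1. P4HA1 (186 and 232 CPM) was called higher and P4HA2 (454 and 394 CPM) lower.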

How the data were processed

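RNA from 3 control and 3 TGF-β1 samples of HK-2 cells was captured with oligo(dT), primed with random hexamers and sequenced. Per the submitters' processing notes, the authors used CASAVA, featureCounts 2.0.1 and DESeq2 1.16.1 with hg38; the aligner, strand setting and annotation release are not given in the sources used here. The deposited tables hold raw counts per gene, and TPM and FPKM that the authors computed from counts and gene lengths. FPKM was not analysed further. Each table held 7 broken records, which were rejoined.

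Entries without a gene name (0.396% to 0.464% of counts) were left out. Genes passing filterByExpr of edgeR 4.0.16 (minimum count 10) were scaled by TMM and tested with the two-sided quasi-likelihood F test, with Benjamini-Hochberg adjustment over 14860 genes. Class shares and chain ratios were compared by the two-sided exact permutation test. All 44 collagen genes are accounted for. From the biosynthesis list, genes called with at least a 2-fold change are named. Some genes of the marker list and near the members are not reported here. The members, classes and lists were chosen with earlier results of these data known. The test was also run on simulated counts drawn from the fitted means and dispersions of these data, and its outcome is not reported here. Alternatives were DESeq2 1.42.0, limma-voom (limma 3.58.1), RLE size factors, total counts only, other count filters, a block for the replicate number, and fits without 1 library each. Shares were also taken over raw counts and ratios with an added count of 2, and entries of 1 name were summed. Added after seeing the data were lengths of principal GENCODE transcripts and the count over genes reaching the filter in both groups. R 4.3.3, Python 3.11.15 and scipy 1.17.1 were used. Depth was 21.9 to 26.9 M counts, and PCR copies could not be told from separate molecules.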

Additional observations from a re-analysis of the deposited data

Results flagged for a closer look

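COL11A2 lies in the major histocompatibility region, for which the reference carries extra copies on alternate contigs. The entry on chromosome 6 had no read in any library. The 6 entries of this name on alternate contigs, which no comparison used, held 13 reads in the TGF-β1 libraries and 3 reads in the control libraries, and are given here because reads appeared in data left out of the comparisons, above the control level. The difference was not tested, and at so few reads the level of COL11A2 is uncertain.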

How the results depend on the processing

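Of 342 values of single collagen genes under the alternatives, 335 kept their direction and side of the threshold, 3 lost a call, 4 gained one and none reversed. All 126 class shares and chain ratios kept their direction. Scaling by total counts alone shifted the median over all genes by -0.11 on the log2 scale, so that 2134 genes were called higher (3294 with TMM) and 31.7% of the calls were higher (50.05% with TMM). Collagen genes called lower numbered 4 rather than 7 among genes averaging 50 counts or more, where 17 collagens were tested, and again 4 when only genes reaching the count filter in both groups were kept, an alternative chosen after seeing the data, with 11 higher. Both alternatives remove the rarer genes by construction. Among all 11979 genes averaging 50 counts or more, 2788 were called higher and 2959 lower. Without 1 library, 14 to 15 collagen genes were called higher and 6 to 8 lower, and 2646 to 3545 genes in all were called higher and 2687 to 3651 lower. With a replicate block, 14 collagen genes were higher and 7 lower, and 3396 and 3394 genes in all. All 25 tested collagen genes kept their side of the threshold with it. Same-numbered libraries deviated together with correlations of 0.11, -0.01 and 0.08. TGF-β1 replicates 1 and 3 correlated best with the control of the same number, and TGF-β1 replicate 2 with control replicate 3 (0.09). Correlations this small, from 3 libraries in a group, cannot decide whether the numbers pair the samples. Depth limits the 19 genes under the filter most.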
